A study of Rattus norvegicus with 31 samples.

Results

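Perivascular adipose tissue (PVAT) from the high-pressure side of a narrowed rat aorta was compared with PVAT from the same site in sham-operated rats. The comparison took the 6 libraries labelled coarctation and dissected above the ligature (coarct above) and the 5 labelled sham and dissected above a loose ligature (sham above), 11 of the 31 bulk RNA libraries of the series. The other 20 libraries are PVAT from below the ligature and brown fat. In coarct above, a silk ligature had been tied around the descending thoracic aorta over a blunt 18-gauge needle that was then withdrawn. Sham above had the same chest opening and an untightened ligature. Both groups were male Sprague-Dawley rats without a stated genetic change, fed chow and housed at 22 °C. Their age is labelled 10 to 15 weeks, with 15 weeks as the time point. The systolic gradient across the ligature was stated as about 20 mmHg at 4 weeks after surgery. The tissue above it thus lay on the side of higher pressure, in animals that also had surgery in the chest. How far and how long the pressure there was raised is not known from that gradient. Titles number the libraries of a site, and that number serves here as the replicate number, although none of the labels ties it to 1 rat. P-values therefore reflect only how far these libraries spread.

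PVAT is the fat that wraps an artery. Around the rat thoracic aorta it is rich in brown adipocytes, and between the fat cells it holds capillaries, nerves, fibroblasts and immune cells. It releases substances that alter the tone of the vessel, among them leptin, adiponectin and angiotensinogen, and it is stretched with the vessel when pressure is high. Every capillary and every adipocyte sits on a basement membrane, a thin sheet of type IV collagen and laminin, while type I and III collagen form the fibres between cells.

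Both groups carried the transcripts of brown PVAT. Adipoq, the adipocyte hormone adiponectin, measured 1439 to 1689 CPM (counts scaled to a common library size) in coarct above and 1192 to 1643 CPM in sham above. Ucp1, the uncoupling protein of brown fat, measured 1163 to 2156 CPM in coarct above and 1061 to 2382 CPM in sham above. On the FPKM scale, which is per transcript length, Ucp1 averaged 1348 ± 280 in coarct above (SD, n = 6) and 1520 ± 430 in sham above (n = 5). Total counts were 18256260 to 23874564 per library in coarct above and 17749979 to 19345593 in sham above. Libraries differed in ways that crossed the groups. Sham above 20 lay at -57.9 on the first principal component (29% of the variance), where the other 10 lay between -32.8 and 17.4, and its long genes read low. Mitochondrial rRNA took 6570 to 10500 CPM of the total in 5 libraries (coarct above 19, 29 and 30, sham above 20 and 26) and 1070 to 1780 CPM in the other 6. Differences within the many-read class (3 coarct above against 2 sham above) and the few-read class (3 against 3) are given for some genes and lists. Where they are not given, the classes may still differ. All CPM values of genes and lists below are on TMM-scaled library sizes, the scale of the test.

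No gene passed the test between coarct above and sham above. EdgeR's quasi-likelihood test with Benjamini-Hochberg adjustment called 0 of 14556 genes (0%) at the 0.05 level. Before adjustment 523 of them (3.59%) were under 0.05, a smaller share than the 0.05 expected if no gene differed. DESeq2 on the same genes called 8 and limma-voom with sample quality weights called 0. Of the 8, Rit2, Chrna7 and Elavl2 had at most 2 counts in any library of either group and fitted log2 values of 16.6, -16.4 and -16.5. A further 2, both uncharacterised loci, had over 100 counts in 2 sham above libraries and at most 15 in every other library compared. The remaining 3 were Chst15, Vps35l and P2ry10. Rit2, Chrna7 and Elavl2 were named after their values were seen. The data still bound the size of most differences. The 95% interval of the log2 difference lay within 2-fold either way for 10432 of 11621 genes whose mean log2 CPM was 1 or more (89.8%), and for 881 of 2935 genes below that level (30%). In 54 genes (0.371%) the values of both groups did not overlap, 31 of them higher in coarct above (0.213%) and 23 lower (0.158%). How many genes would separate under random labels was not computed. A lack of overlap, here and in the genes below, therefore does not by itself mark a group difference. The split by direction depended on the scaling. On CPM of the total count, and on the deposited FPKM, 8 genes were higher without overlap and 35 lower. Limma on log2(FPKM + 1), which takes no TMM factor, fitted 39.8% of genes higher, with 84 higher and 330 lower under 0.05 before adjustment, against 281 higher and 242 lower with edgeR.

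Among the genes that lay higher in coarct above, Chst15 had the lowest p of all genes. Chst15 encodes a sulfotransferase that adds a second sulfate to chondroitin sulfate, a sugar chain of the extracellular matrix, and lies on chromosome 1 in the deposited table (start 204245645). It measured 5.82, 6.32 and 6.91 CPM (lowest, median, highest) in coarct above, against 2.61, 4.84, 3.31, 3.39 and 4.00 CPM in sham above 20, 22, 24, 26 and 28. The groups did not overlap on TMM-scaled CPM, total-count CPM or FPKM, and counts were 116 to 143 per coarct above library and 53 to 90 per sham above library. The log2 difference was 0.80 (95% interval 0.48 to 1.13, edgeR adjusted p = 0.404). It was 1.10 within the libraries with many reads of mitochondrial rRNA and 0.61 within those with few, and DESeq2 called it (adjusted p = 0.0033). At the site below the ligature Chst15 differed between coarct and sham by 0.29, and the difference of the 2 sites, 0.51, did not pass (edgeR interaction adjusted p = 1.0).

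Vps35l encodes a subunit of the retriever complex, which returns membrane proteins from endosomes to the cell surface. It measured 54.9, 62.1 and 64.6 CPM in coarct above, against 50.6, 52.0, 49.7, 48.9 and 49.1 CPM in sham above. The spread within sham above was small, and every coarct above library lay higher on this scale, while the groups overlapped on total-count CPM and FPKM. Its log2 difference was 0.29 (0.16 to 0.42, edgeR adjusted p = 0.434; DESeq2 adjusted p = 0.00129), and it stayed between 0.22 and 0.31 under the alternatives tried. Myorg, a glycosidase of the endoplasmic reticulum, measured 41.3, 52.9 and 61.3 CPM in coarct above, against 40.9, 36.1, 29.8, 35.1 and 35.8 CPM in sham above, a log2 difference of 0.54 (0.23 to 0.85, edgeR adjusted p = 0.999).

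Pik3r1 encodes the p85 regulatory subunit through which insulin receptors reach phosphoinositide 3-kinase. It measured 68.9, 115 and 143 CPM in coarct above, against 22.4, 83.0, 55.2, 47.9 and 44.5 CPM in sham above, and sham above 22 lay inside the coarct range. The log2 difference of 1.11 (0.47 to 1.74, edgeR adjusted p = 0.999) was 0.91 without sham above 20, the library with the lowest value, and it was 1.74 in the many-read class and 0.71 in the few-read class.

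Kdm1b, a histone demethylase, Cnot4, a ubiquitin ligase tied to the mRNA deadenylation complex, and Ccdc28b were further genes without overlap, at log2 differences of 0.34, 0.28 and 0.51. These 3 genes and Myorg overlapped on total-count CPM and FPKM. Zfp41, a zinc finger protein, differed by 0.52 with groups that touched, at 7.47 to 10.3 CPM in coarct above and 4.38 to 7.48 CPM in sham above. Isoc1 rested on 1 library: coarct above 29 measured 38.8 CPM, the other coarct above libraries at most 0.835 CPM and sham above at most 0.512 CPM. Each of these 5 genes had an edgeR adjusted p = 0.999.

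**Figure D1:**
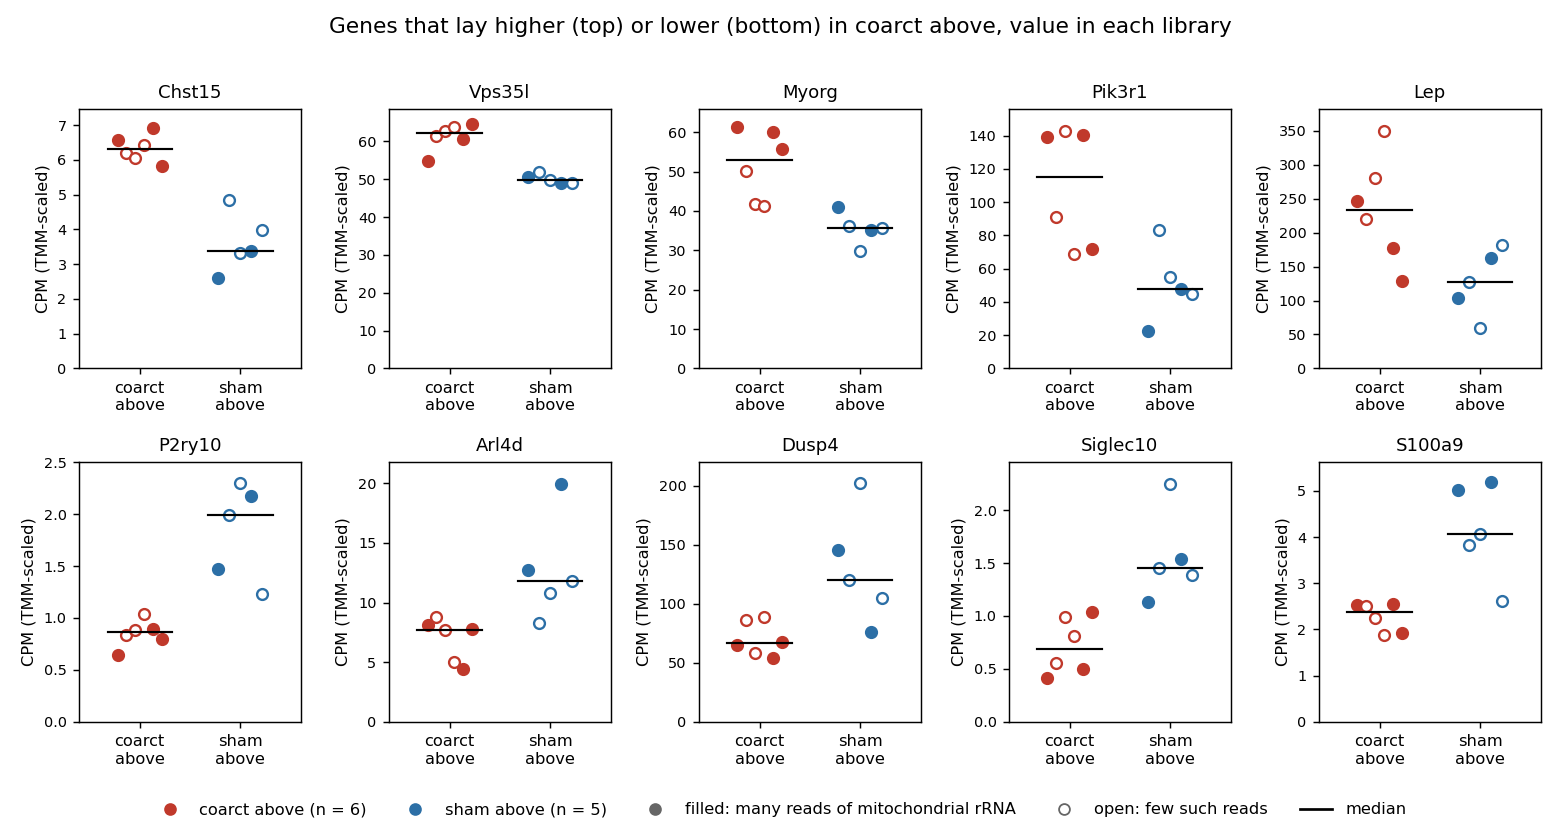
CPM on TMM-scaled library size (y axis, from 0) of 10 genes in each library, coarct above (red, n = 6) left of sham above (blue, n = 5), with the median as a line. Filled points are libraries with many reads of mitochondrial rRNA. Chst15, Vps35l, Myorg, P2ry10, Siglec10 and S100a9 show no overlap, while Pik3r1, Lep, Arl4d and Dusp4 show separate medians with points that cross.

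The strongest shared lean upward among the vessel and matrix lists was that of the basement membrane. Of its 15 tested genes, 13 had higher fitted levels in coarct above and 2 lower, with a median log2 difference of 0.26, where the median of all tested genes was 0.01, with 51.3% of them fitted higher and 48.7% lower. None passed over all genes; 4 of the 15 had an unadjusted p under 0.05 with a higher level, against 1.93% of all tested genes. The summed level was 2340, 2640 and 3440 CPM (lowest, median, highest) in coarct above, against 1980, 2340, 1880, 2310 and 2280 CPM in sham above, so that the groups met at 2340 CPM.

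Col4a1 and Col4a2 encode the chains of the type IV collagen network found in every basement membrane. They lie head to head on chromosome 16, and their transcription starts are close enough to share 1 control region, which is why that stretch is shown here. In RefSeq's GRCr8 assembly the 76 bases between the starts, with 30 more on each side (chr16:84885491-84885626, plus strand, reading into Col4a1), are printed with a GC box (GGGCGG) and a CCAAT box in capitals, both found on the minus strand. The GC box lies between the starts. The CCAAT box lies in the 30 bases past the start of Col4a1, inside that gene.
Col4a1 and Col4a2 start region: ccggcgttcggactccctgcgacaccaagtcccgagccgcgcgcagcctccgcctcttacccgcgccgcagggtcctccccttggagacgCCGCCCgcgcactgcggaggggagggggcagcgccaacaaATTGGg
Searched on both strands, CCAAT was found in 37.5% and GGGCGG in 33.1% of the 33469 promoter windows of 300 bases in the same table, and both in 11.8%. Those windows are longer than the 136 bases printed. These matches describe the letters and say nothing of which factor binds.

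Col4a1 measured 687, 908 and 1414 CPM in coarct above, against 658, 781, 576, 704 and 646 CPM in sham above. Col4a2 measured 431, 553 and 765 CPM in coarct above, against 390, 432, 343, 416 and 417 CPM in sham above. Both were highest in coarct above 30 and next highest in coarct above 19, and coarct above 25 lay within the sham range in each. The log2 differences were 0.51 for Col4a1 (0.13 to 0.88) and 0.50 for Col4a2 (0.18 to 0.82), each with an edgeR adjusted p = 0.999. Without coarct above 30 they were 0.36 and 0.39. Within the libraries with many reads of mitochondrial rRNA they were 0.70 and 0.64, and within those with few 0.26 and 0.31.

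Lamb1 and Lama5, laminin chains, were named after their values were seen. Lamb1 measured 138, 159 and 186 CPM in coarct above, against 101, 153, 137, 129 and 142 CPM in sham above, a log2 difference of 0.26 that was 0.17 without sham above 20, 0.57 in the many-read class and 0.00 in the few-read class. Lama5 measured 26.1, 37.7 and 40.5 CPM in coarct above, against 24.2, 29.5, 19.8, 32.6 and 32.7 CPM in sham above, a log2 difference of 0.33. Both had an edgeR adjusted p = 0.999. The list median was lower without sham above 20, at 0.17 with 11 of 15 members higher, and without sham above 20 and 24 together it was 0.12 with 10 of 15 higher. It was 0.17 without coarct above 19, 0.19 without sham above 24 and 0.14 with limma-voom. Within the many-read class it was 0.26 with 12 of 15 higher, and within the few-read class 0.12 with 13 of 15 higher. With each library's slope on gene length as a covariate it was 0.21 with 13 of 15 higher. Sham above 20 read low in long genes, and when the tested genes were cut by length into 5 equal classes, 60.1% of the longest class and 39.4% of the shortest were fitted higher in coarct above. The part of gene length in the basement membrane result was not tested beyond that covariate.

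Vessel wall genes were split. Kdr and Flt1 encode the endothelial receptors of vascular endothelial growth factor. Kdr measured 80.4, 107 and 119 CPM in coarct above, against 82.0, 84.4, 73.7, 72.9 and 91.7 CPM in sham above, with 5 of 6 coarct above libraries over all of sham above (log2 difference 0.37, 0.07 to 0.66, edgeR adjusted p = 0.999). Flt1, named after its values were seen, differed by 0.36, and Cdh5, the cadherin of endothelial junctions, by 0.24 (-0.15 to 0.62), or by 0.38 without sham above 20 and 0.09 without sham above 24. Kdr, Flt1 and Cdh5 all lie on the higher side and do not stand for the list. Of 17 tested blood endothelium genes 10 were fitted higher and 7 lower, from -0.62 to 0.39 with a median of 0.04. The list sums were 770 to 938 CPM in coarct above and 704 to 888 CPM in sham above. The list's median was -0.22 within the libraries with many reads of mitochondrial rRNA and 0.24 within those with few.

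Rgs5, a marker of pericytes that damps G protein signals, measured 90.3, 111 and 129 CPM in coarct above, against 68.9, 85.0, 90.9, 89.2 and 101 CPM in sham above (log2 difference 0.33, 0.10 to 0.57, edgeR adjusted p = 0.999). Of 20 smooth muscle contraction genes 10 were fitted higher and 10 lower, with a median of 0.02. Among them Myh11, the smooth muscle myosin heavy chain, differed by 0.33 (-0.18 to 0.84) and Mylk, the kinase that starts contraction, by -0.23 (-0.57 to 0.11). Without sham above 24 Myh11 differed by 0.21, and without sham above 26 Mylk differed by -0.35. In bulk tissue a change in the number of such cells and a change in RNA per cell cannot be told apart.

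**Figure D2:**
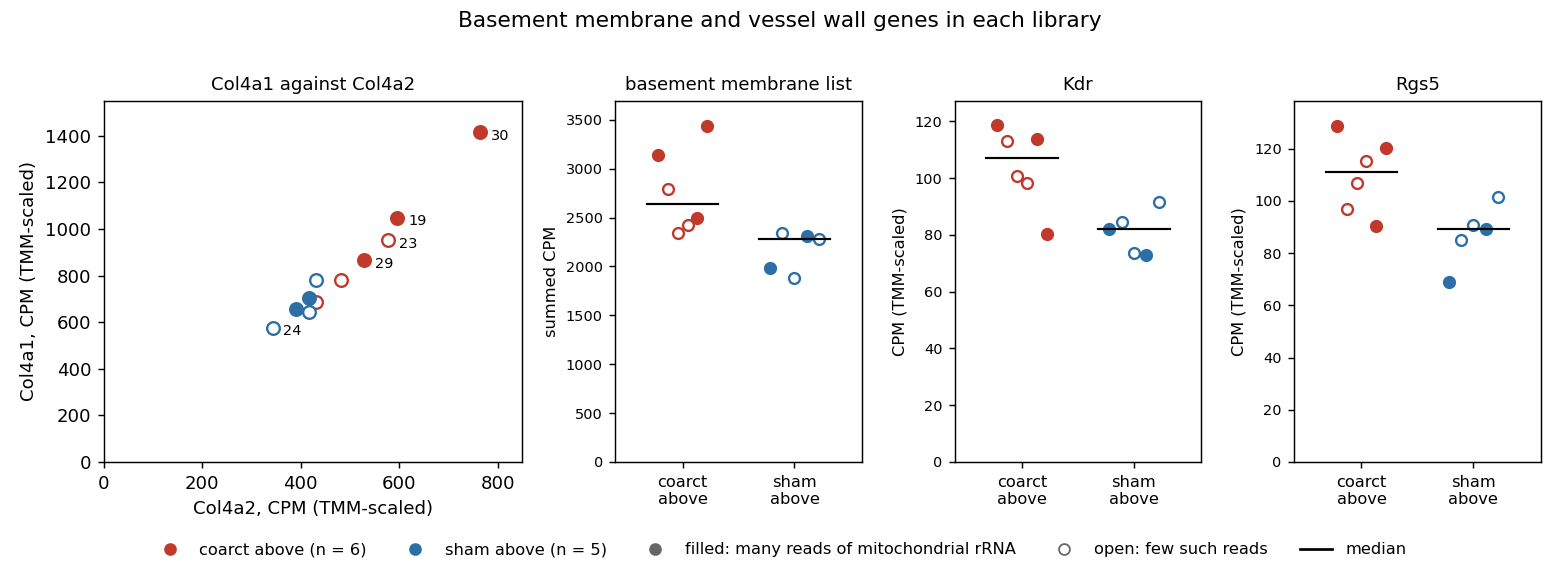
Left, Col4a1 against Col4a2 in each library (CPM on TMM-scaled library size, both axes from 0, selected replicates numbered); right, the summed basement membrane list, Kdr and Rgs5, coarct above (red) left of sham above (blue), with medians as lines. The pair of collagen chains lies along 1 line with coarct above 30, 19 and 23 at its top, and the list sums of both groups meet at 2340 CPM.

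The fibres between cells did not share that lean. Of 22 fibrillar and structural matrix genes 5 were fitted higher in coarct above and 17 lower, with a median log2 difference of -0.18, and none had an unadjusted p under 0.05. Col1a1, the main chain of type I collagen, measured 304, 668 and 1353 CPM in coarct above, against 1183, 673, 703, 1187 and 672 CPM in sham above. Both the lowest value (coarct above 29) and the highest (coarct above 19) belonged to coarct above, and the interval of the log2 difference, -0.93 to 0.35 around -0.29, leaves room for changes either way. Fn1, fibronectin, differed by -0.25 (-0.78 to 0.27), and Ltbp4, which anchors latent TGF-beta in the matrix, by -0.34 (-0.75 to 0.07). Leaving out 1 library moved Col1a1 between -0.59 (without coarct above 19) and -0.13 (without coarct above 29), and Fn1 between -0.43 (without coarct above 19) and -0.07 (without sham above 26). Ltbp4 was -0.17 without sham above 26.

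Dcn, the collagen-binding proteoglycan decorin, differed by -0.45 (-0.98 to 0.08) and Timp2, an inhibitor of matrix proteases, by -0.45 (-0.94 to 0.04). Without sham above 26 these were -0.24 and -0.25. Within the many-read class they were -0.96 and -0.97, and within the few-read class -0.04 and 0.00. Timp3, a protease inhibitor bound to the matrix, went the other way at 0.26 (-0.04 to 0.56), and Loxl2, a collagen crosslinking enzyme, lay at 0.22 (-0.06 to 0.51), or 0.12 without sham above 20. Of 20 matrix proteases and inhibitors 5 were fitted higher and 15 lower, and of 17 crosslinking and hydroxylation genes 9 higher and 8 lower. Within the many-read class 4 of 20 and 4 of 17 were higher, and within the few-read class 13 of 20 and 11 of 17. All of these genes had an edgeR adjusted p = 0.999.

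Fibroblast and adipocyte progenitor genes were mixed: of 18 tested, 6 were fitted higher and 12 lower, with a median of -0.14, and before adjustment 1 higher and 2 lower were under 0.05. The median was -0.05 without sham above 26, -0.47 in the many-read class and 0.03 in the few-read class. Pi16, a marker of adventitial fibroblasts, measured 136, 255 and 387 CPM in coarct above, against 323, 284, 463, 718 and 294 CPM in sham above (log2 difference -0.70, -1.38 to -0.02). Pdgfra, a receptor of fibroblasts and fat progenitors, measured 20.0 to 66.4 CPM in coarct above and 35 to 79.6 CPM in sham above. Sham above 26 was the highest sham library in both, and without it the differences were -0.43 for Pi16 and 0.00 for Pdgfra. In the many-read class they were -1.24 and -0.596, and in the few-read class -0.265 and 0.0458. The median of the fibrillar list was -0.06 without sham above 26, with 8 of 22 members fitted higher. It was -0.40 within the libraries with many reads of mitochondrial rRNA, which include sham above 26, and 0.04 within those with few.

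Genes known to respond to stretch through YAP or SRF showed no common lean, with 10 of 22 fitted higher, 12 lower and a median of -0.02. Ctgf, a matrix-associated growth factor that YAP induces, measured 4.4, 11 and 17.1 CPM in coarct above, against 14.6, 11.7, 13.6, 23.3 and 15.0 CPM in sham above, a log2 difference of -0.55 (-1.11 to 0.01). Axl, a receptor kinase, had the lowest p of the list, at -0.55 (-0.97 to -0.12). Without sham above 26, the highest sham library in both, Ctgf lay at -0.38 and Axl at -0.36. In the many-read class they lay at -0.97 and -0.94, and in the few-read class at -0.22 and -0.23. Of 17 mechanosensitive ion channels 9 were fitted higher and 8 lower. Piezo1, the stretch-gated channel with the highest CPM on that list, differed by 0.35 (-0.28 to 0.98), or by 0.16 without coarct above 23 and 0.22 without coarct above 30, at 94.3 to 245 CPM in coarct above and 95 to 165 CPM in sham above. Kcnk4, a stretch-gated potassium channel, lay at -0.53 (-1.10 to 0.04). All had an edgeR adjusted p = 0.999.

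**Figure D3:**
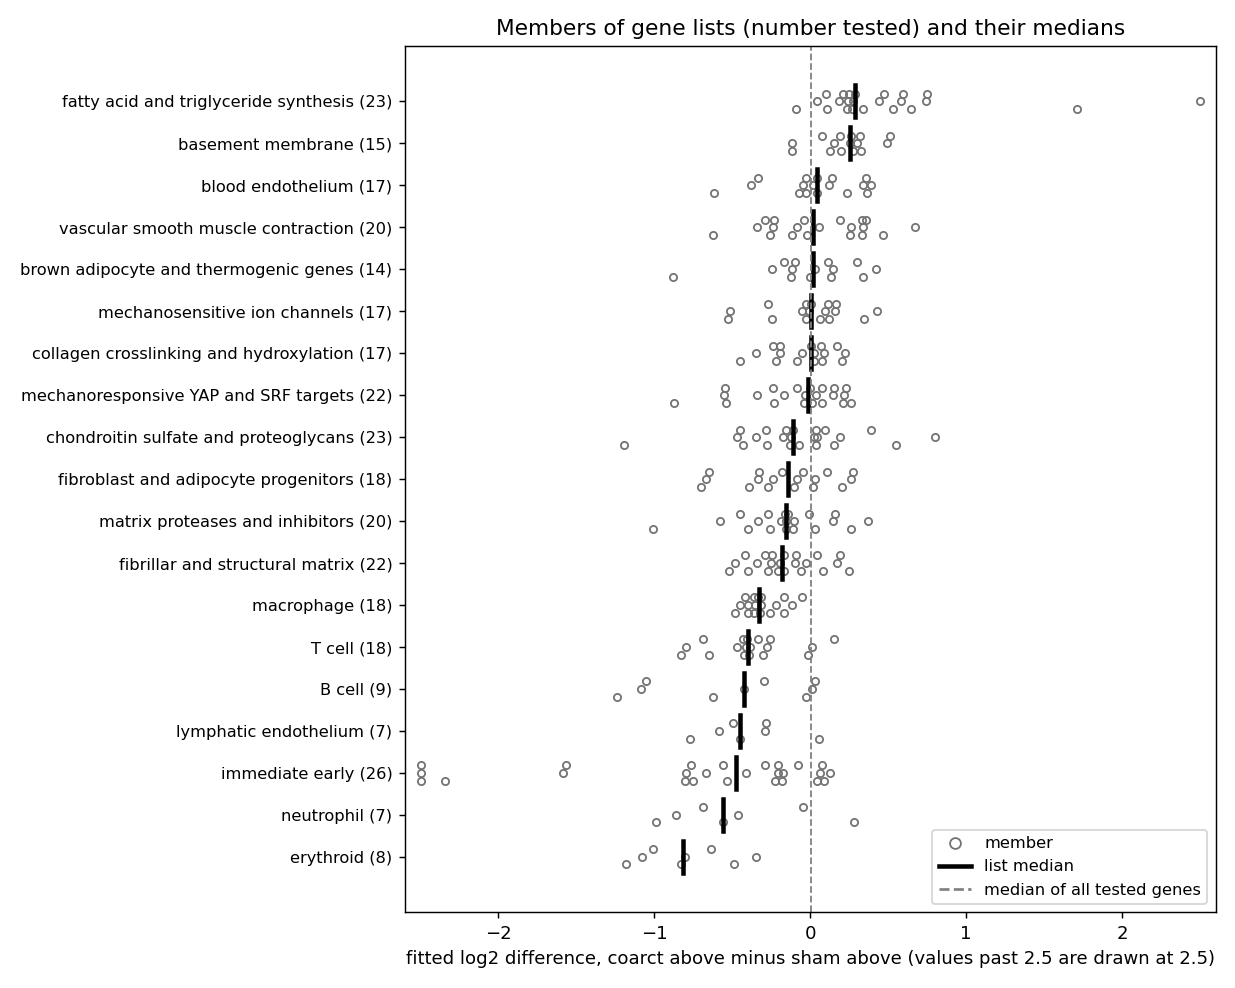
Fitted log2 difference, coarct above minus sham above, of each tested member (open points) of 19 gene lists, with the list median (bar) and the median of all tested genes (dashed line). The basement membrane and fatty acid synthesis lists lie right of the dashed line with medians of 0.26 and 0.28, and the macrophage, T cell, B cell, neutrophil and erythroid lists lie left of it.

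The lists of immune cell genes had more members fitted lower than higher in coarct above, though not under every alternative. P2ry10, a lysophospholipid receptor of lymphocytes, had the second lowest p of all genes. It measured 0.643, 0.863 and 1.03 CPM in coarct above, against 1.48, 1.99, 2.30, 2.17 and 1.23 CPM in sham above. The groups did not overlap, at 14 to 23 counts per coarct above library and 24 to 43 per sham above library. The log2 difference was -1.10 (-1.57 to -0.64, edgeR adjusted p = 0.404, DESeq2 adjusted p = 0.0418), with -1.22 and -1.01 within the libraries with many and few reads of mitochondrial rRNA. Below the ligature it was -0.15, and the difference of the sites, -0.95, did not pass (edgeR interaction adjusted p = 1.0).

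Siglec10, an inhibitory receptor of B and myeloid cells, measured 0.414 to 1.03 CPM in coarct above and 1.13 to 2.25 CPM in sham above. Fcgr3a, an Fc receptor of natural killer and myeloid cells, measured 0.167 to 0.522 CPM in coarct above and 0.699 to 1.23 CPM in sham above. Their log2 differences were -1.10 and -1.42, from 9 to 22 and 3 to 10 counts per coarct above library, and both had an edgeR adjusted p = 0.999. S100a9, a calcium-binding protein of neutrophils and monocytes, measured 1.89 to 2.56 CPM in coarct above and 2.61 to 5.19 CPM in sham above. Cd79b, a subunit of the B cell receptor, measured 0.0939 to 0.689 CPM in coarct above and 0.753 to 1.08 CPM in sham above. P2ry10, Siglec10, Fcgr3a and Cd79b kept their groups apart on total-count CPM and FPKM, and S100a9 did not. The first 4 were named after their values were seen.

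All 18 tested macrophage genes were fitted lower, with a median of -0.33, yet none of the 18 had an unadjusted p under 0.05. Cd68, a lysosomal protein of macrophages, measured 11.5, 12.8 and 14.8 CPM in coarct above, against 20.9, 14.7, 12.5, 17.6 and 15.1 CPM in sham above (log2 difference -0.31, -0.63 to 0.01). Lyz2, lysozyme, differed by -0.40 (-0.86 to 0.07). The macrophage sum was 258 to 540 CPM in coarct above and 351 to 733 CPM in sham above, so that the groups overlapped widely. The list median was -0.62 within the libraries with many reads of mitochondrial rRNA, with 18 of 18 lower, and -0.04 within those with few, with 11 of 18 lower. Without coarct above 29 it was -0.22. MHC class II genes, which antigen-presenting cells carry, had 3 of 10 fitted higher, 7 lower and a median of -0.08. That median was -0.62 in the many-read class with 10 of 10 lower, and 0.40 in the few-read class with 8 of 10 higher. With limma-voom 6 of the 10 were higher.

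Of 18 tested T cell genes 16 were fitted lower, the median was -0.40, and 4 had an unadjusted p under 0.05 with a lower level, against 1.66% of all tested genes. Cd8a, the coreceptor of cytotoxic T cells, measured 0.992, 1.40 and 2.48 CPM in coarct above, against 2.46, 2.90, 2.62, 3.07 and 2.20 CPM in sham above (log2 difference -0.69, -1.23 to -0.14). The T cell median was -0.55 within the many-read class, with 4 of 16 tested members higher and 12 lower, and -0.24 within the few-read class, with 17 of 17 lower. Of 9 B cell genes 7 were fitted lower (median -0.42). Of 7 neutrophil genes 6 were fitted lower (median -0.56), although the neutrophil sums of both groups overlapped. Of 8 mast cell genes 7 were fitted lower (median -0.19), and of 17 inflammatory cytokine and chemokine genes 14 (median -0.28). These 2 medians were -0.385 and -0.585 in the many-read class and 0.027 and -0.0263 in the few-read class.

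Other genes among the 10 lowest p-values in the lower direction also include signal proteins of leukocytes. Lcp2, an adaptor of T cell receptor signals, differed by -0.58, Tec, a kinase of lymphocyte receptors, by -0.46, and Igsf6, a membrane protein of myeloid cells, by -0.75. Ifit2, an interferon-induced protein, differed by -0.53, at 18.8 to 26.2 CPM in coarct above and 23 to 46.7 CPM in sham above, but of 20 interferon-stimulated genes 11 were fitted higher and 9 lower. Each had an edgeR adjusted p = 0.999. In the many-read class Lcp2, Tec, Igsf6 and Ifit2 lay at -0.764, -0.842, -0.692 and -0.593. In the few-read class they lay at -0.449, -0.169, -0.759 and -0.511.

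Red cell and lymphatic transcripts are given beside these lists. All 8 tested erythroid genes were fitted lower in coarct above, with a median of -0.82, and 1 of them was under 0.05 before adjustment. The erythroid sum was 710, 1310 and 2280 CPM in coarct above, against 2150, 448, 3870, 3440 and 1220 CPM in sham above, so that the groups overlapped. The erythroid median was -0.51 without sham above 24, -0.26 without sham above 20 and 24, -0.35 in the few-read class, and -0.13 with limma-voom, where 2 of 8 were higher. Of 7 lymphatic endothelium genes 6 were fitted lower, where sham above 26 held 169 CPM and every other library 30.6 to 91.0 CPM. The lymphatic median was -1.02 in the many-read class and 0.30 in the few-read class. Lyve1, a hyaluronan receptor of lymphatic vessels and some macrophages, differed by -0.59, at 7.74 to 18.4 CPM in coarct above and 14.5 to 35.1 CPM in sham above, and by -0.38 without sham above 26. Without that library the lymphatic median was 0.06, and the macrophage, neutrophil, T cell and B cell medians were -0.22, -0.36, -0.40 and -0.43. The part of blood or lymphatic tissue in the leukocyte values was not tested.

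Among fat cell genes, Lep, which encodes leptin, measured 129, 234 and 350 CPM in coarct above, against 103, 128, 59.7, 163 and 182 CPM in sham above. All 6 coarct above libraries lay over the sham median, and coarct above 30 and 29 lay within the sham range. The log2 difference was 0.88 (0.17 to 1.59, edgeR adjusted p = 0.999), with 0.48 in the many-read class and 1.19 in the few-read class. Adiponectin is tightly bounded in comparison: the interval of Adipoq was -0.13 to 0.31 around 0.09. Of 16 tested adipokine genes 8 were fitted higher and 8 lower.

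Of 23 fatty acid and triglyceride synthesis genes 22 were fitted higher (median 0.28), and 1 had an unadjusted p under 0.05. Their sum was 16000, 35500 and 93600 CPM in coarct above, against 31200, 40900, 22000, 15700 and 38900 CPM in sham above. Only coarct above 23, 29 and 30 lay over the sham range, and the lowest 3 coarct above libraries lay within it. Fasn, fatty acid synthase, measured 3739, 12303 and 39525 CPM in coarct above, against 9858, 17950, 6410, 3021 and 17160 CPM in sham above, and its log2 difference of 0.53 had an interval of -0.88 to 1.94. Scd, the stearoyl-CoA desaturase, named after its values were seen, differed by 1.71 and by 0.54 without coarct above 30. The list median was 0.10 without coarct above 30, 0.15 without coarct above 23, 0.16 without sham above 26 and 0.13 with limma-voom. Within the few-read class 15 of 23 were higher and 8 lower (median 0.12), within the many-read class 22 of 23 were higher (median 0.54), and without sham above 20 and coarct above 30 together 18 of 23 were higher. Elovl6, a fatty acid elongase, owed its lowest p on this list to coarct above 23, at 43.7 CPM where every other library of both groups lay at 1.08 CPM or under.

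Brown fat genes were even, with 7 of 14 fitted higher and 7 lower. Prdm16, a transcription factor of brown adipocyte identity, measured 25, 33.9 and 48.2 CPM in coarct above, against 14.8, 27.5, 23.6, 29.5 and 35.4 CPM in sham above (log2 difference 0.42, 0.03 to 0.81). It was 0.26 without sham above 20 and 0.19 without sham above 20 and 24. Ppargc1a, a coactivator of mitochondrial genes named after its values were seen, differed by -0.88, or by -0.11 without sham above 24, which alone reached 54.8 CPM. Ucp1 differed by -0.11 (-0.57 to 0.34). Agt, angiotensinogen, the precursor of angiotensin II, varied within coarct above from 69.0 to 890 CPM, and its log2 difference of 0.17 had an interval of -0.86 to 1.2. Of 11 tested renin-angiotensin genes 5 were fitted higher and 6 lower.

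Dusp4, a phosphatase that switches off MAP kinases, measured 54.4, 66.5 and 88.8 CPM in coarct above, against 146, 120, 202, 76.5 and 105 CPM in sham above. Its log2 difference of -0.89 (-1.45 to -0.33, edgeR adjusted p = 0.999) was -0.52 without sham above 20 and 24 together. Those libraries also held the most immediate early transcripts, which cells make within minutes of a stimulus: their list sums were 1280 and 1010 CPM, against 373 to 511 CPM in the other 3 sham above libraries and 400 to 623 CPM in coarct above. Nr4a3, a nuclear receptor of this group, measured 0.360 to 1.82 CPM in coarct above and 7.62, 0.807, 30.2, 0.636 and 0.717 CPM in sham above.

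The immediate early list had 5 of 26 genes fitted higher and 21 lower with a median of -0.47, and without sham above 20 and 24 it had 21 of 26 higher with a median of 0.24. The median was -0.05 without sham above 20 alone, 0.02 with limma-voom, -0.94 in the many-read class and -0.08 in the few-read class. Nr4a3, Nr4a1 and Btg2 differed by -3.22, -2.95 and -0.80, and without these 2 libraries by 0.24, 0.64 and 0.25. Nr4a1 was named after its values were seen. The remaining genes with low p-values in this direction that are named here did not depend on the pair of libraries for their sign. Arl4d, a small GTPase, measured 4.4, 7.73 and 8.81 CPM in coarct above, against 12.7, 8.28, 10.8, 20.0 and 11.8 CPM in sham above (log2 difference -0.86, -1.30 to -0.43). Peg3, an imprinted zinc finger protein, differed by -0.88, Daglb, a diacylglycerol lipase, by -0.53, Mal, a protein of membrane rafts, by -0.89, and Ntn1, the guidance protein netrin, by -0.80, all with an edgeR adjusted p = 0.999. Arl4d was -1.27 in the many-read class and -0.54 in the few-read class, and Ntn1 was -1.43 and -0.27. The size of some differences did depend on the pair. Without sham above 20 and 24 Ifit2 was -0.263, Daglb -0.338, Peg3 -0.749, Igsf6 -0.651 and Lcp2 -0.584. Tec was then -0.504, Arl4d -0.932, Mal -0.91 and Ntn1 -0.883.

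**Figure D4:**
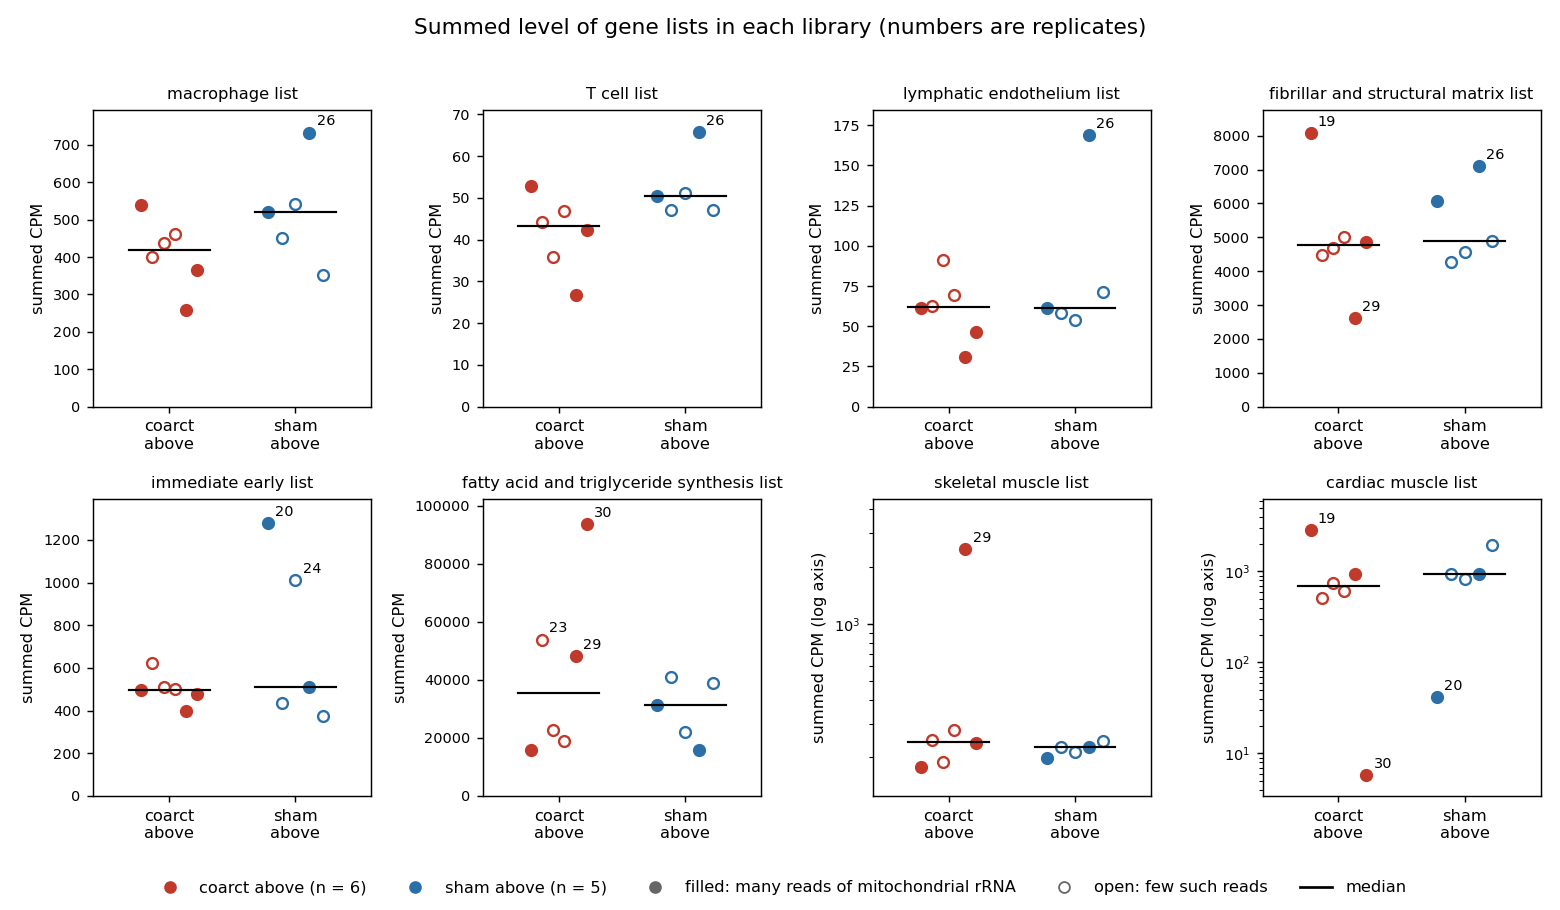
Summed CPM of 8 gene lists in each library, coarct above (red) left of sham above (blue), with medians as lines and selected replicates numbered; the muscle panels have log axes and the others start at 0. Sham above 26 is highest of the sham libraries in the first 4 panels, sham above 20 and 24 stand out in immediate early genes, and single coarct above libraries set the extremes of the lower right panels.

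Transcripts of other tissues set single libraries apart. All 10 tested skeletal muscle genes were fitted higher in coarct above, from 1 library: coarct above 29 summed to 2480 CPM, the other coarct above libraries to 179 to 279 CPM and sham above to 198 to 245 CPM. Without it the list median was -0.16, with 2 of 8 tested members higher. Actn3, the actinin of fast muscle fibres, measured 141 CPM there and at most 1.62 CPM in every other library of both groups. Cardiac muscle sums were 5.82 to 2870 CPM in coarct above and 41.3 to 1960 CPM in sham above, lowest in coarct above 30 and sham above 20. The cardiac muscle median was 1.14 in the many-read class, with 12 of 12 tested members higher. In the few-read class it was -0.98, with 12 of 12 lower.

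The question whether surgery acted differently on the side above and the side below was tested as an interaction over 22 libraries. EdgeR called 0 of 14556 genes (0%), and 352 (2.42%) were under 0.05 before adjustment; DESeq2 and limma-voom called 0. Pik3r1, Lep and Dusp4 had similar differences at both sites: 1.11 above and 0.98 below for Pik3r1, 0.88 and 0.90 for Lep, and -0.89 and -1.02 for Dusp4. For Dusp4 the numbers 20 and 24 were also the highest shams below, at 3531 and 4448 counts. The other sham below libraries held 1341 to 2108 and coarct below 1055 to 2346. For Lep the numbers 20 and 24 were the lowest shams at both sites. Below they held 1166 and 1184 counts, and the other sham below libraries 2427 to 2887. Without sham above 20 and 24 together the Lep difference above was 0.575. Immediate early sums of sham below 20 and 24 were 1040 and 1510 CPM, against 326 to 477 CPM in the other sham below libraries. Vps35l differed by 0.29 above and 0.05 below, Siglec10 by -1.10 and 0.16, and Rgs5 by 0.33 and -0.05, each with an edgeR interaction adjusted p = 1.0. The basement membrane median was 0.26 above and 0.18 below, and the macrophage median -0.33 above and -0.02 below; the difference between sites was not tested for lists.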

How the data were processed

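The authors deposited whole-number read counts per Ensembl gene and an FPKM table, which matched count over gene length and library total to within a relative 6.88e-15. The submitters' processing notes name STAR 2.5, HTSeq 0.6.1 and DESeq2 1.24.0. Genome build and strand setting: not given in the sources used here. RNA integrity numbers were 7.5 or more, per the labels' protocols. Of 32883 entries, 8811 had no count, and 25 with a date as name took the name of the FPKM table.

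Counts of the 22 PVAT libraries in 4 groups were fitted together in R 4.3.3 with edgeR 4.0.16 (filterByExpr, TMM factors, glmQLFit and glmQLFTest), which estimates the spread from 4 groups. Calls required a p, adjusted by Benjamini-Hochberg over the 14556 tested genes, under 0.05. SE is the absolute log2 difference over the square root of F. Alternatives used DESeq2 1.42.0 and limma 3.58.1 on the same counts, limma on log2(FPKM + 1), other library sets and covariates. The fits were tested on simulated counts drawn independently for each library. Those counts held no pairing by rat, no length trend and no mitochondrial rRNA class, so they cannot show how the fits handle these. CPM uses the TMM-scaled library size.

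The libraries, the 45 gene lists and the alternatives were chosen with earlier results of these data known. Genes named are the 10 lowest p-values each way with a symbol and a mean log2 CPM of at least 1, the lowest p and the highest CPM of a list, and a fixed set. Others are marked as named after their values were seen, and some genes of this rule are not reported here. Library classes were split at the widest gap of mitochondrial rRNA. Promoter sequence is from RefSeq, GRCr8. The 9 brown fat libraries were not used in any fit.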

Additional observations from a re-analysis of the deposited data

Results flagged for a closer look

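In each group the highest and lowest library was compared with its nearest neighbour, over 170 sets of values, and 18 stood apart by Dixon's criterion. The criterion marks about 1 in 20 sets of independent, normally spread values. Some of these genes were named with their values known, and genes and lists overlap, so the 18 cannot be set against that rate. Coarct above 29 held 2480 CPM of the skeletal muscle list, 141 CPM of Actn3 and 38.8 CPM of Isoc1, where the next coarct above library held 279, 1.62 and 0.835 CPM. Coarct above 23 held 43.7 CPM of Elovl6 and 1.82 CPM of Nr4a3, next to 1.08 and 0.873 CPM. Coarct above 30 held 19200 CPM of Scd, next to 6725 CPM. Coarct above 19 held 2870 CPM of the cardiac muscle list, next to 937 CPM, and had the lowest Mylk, 279 CPM, next to 390 CPM.

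Among the shams, sham above 26 stood apart in Ctgf at 23.3 CPM, Axl at 105 CPM, Pdgfra at 79.6 CPM, the T cell list at 65.8 CPM and the lymphatic endothelium list at 169 CPM, where the next library held 15.0, 65.0, 47.1, 51.2 and 71.5 CPM. Sham above 24 held 54.8 CPM of Ppargc1a, 30.2 CPM of Nr4a3 and 6.25 CPM of Lnpep, an angiotensin IV-binding peptidase, next to 16.2, 7.62 and 0.530 CPM. Sham above 22 held 610 CPM of the Schwann cell list and 1.29 CPM of Actn3, next to 384 and 0.794 CPM.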

How the results depend on the processing

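The count of genes called was 0 between coarct above and sham above and 0 in the site interaction. The first became 8 with DESeq2 and 1 within the libraries with few reads of mitochondrial rRNA (3 against 3), and it stayed at 0 with DESeq2 size factors, without a filter, with voom, FPKM, a robust fit, a class term, the 11 libraries alone, the many-read class (3 against 2), the pairs of libraries left out and both covariates. Leaving out each library gave 0 to 0 in both. The title numbers shared by sites did not meet the rule for pairs (same-number correlations -0.113 to 0.492, negative for sham 20 and 24). The main fit therefore took same-number libraries as independent, although Fam111a, described below, followed the number across sites. Any pairing by rat is thus left out of the main fit. For coarct 23, 25, 27 and 30 and sham 22, 26 and 28 the library above correlated best with the same number below. For coarct 19 and 29 and sham 20 and 24 it correlated best with another number, at 0.685 for sham 20. The interaction with a replicate block called 0 genes, and 859 were under 0.05 before adjustment, against 352 without the block. Genes without overlap numbered 31 higher and 23 lower on TMM-scaled CPM, and 8 and 35 on total-count CPM and on FPKM, a comparison of scales added after seeing the data, as was the length covariate. Of 1747 values of 70 named genes under alternatives, 1725 kept their sign. Many of these genes were named for a low p in the same libraries, which most alternatives reused. That share is therefore no separate support. Of 1150 medians of the lists and of all tested genes, 86 moved by more than their spread between libraries within the groups. Fasn turned to -0.10 with voom, -0.53 in the few-read class and -0.0275 without sham above 20 and coarct above 30. Agt turned to -0.31 with voom, -0.15 on FPKM and -0.49 in the few-read class. Ucp1 turned to 0.10 with voom, 0.19 without sham above 20 and 24, and 0.0512 without sham above 20 and coarct above 30. In the many-read class Adipoq was -0.0902, Npr3 0.50, Tnni3 0.99 and Fam111a 1.40, and in the few-read class Pdgfra was 0.0458. Without sham above 20 and 24, Nr4a3 was 0.24, Nr4a1 0.64 and Btg2 0.25. Leaving out 1 library at a time moved Agt between -0.0308 and 0.38, Ucp1 between -0.27 and 0.00628, and Elovl6 between -0.24 and 3.79. The cause was not tested.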

Other observations

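Fam111a, a DNA-binding protease of replication forks, was chosen after its values were seen. It was the only gene edgeR called within the libraries with few reads of mitochondrial rRNA, where coarct above averaged 1.19 CPM and sham above 88.1 CPM (3 libraries each, log2 difference -6.23, edgeR adjusted p = 0.0312). Over the whole comparison it was near absent in coarct above 23, 25 and 27, at 0.900 to 1.51 CPM, and at 51.6 to 61.6 CPM in coarct above 19, 29 and 30, against 12.0 to 155 CPM in sham above. The low numbers were low at every site. On the scale of total counts (CPM), coarct below 23, 25 and 27 held 1.66 to 2.04 and coarct brown fat 23 and 27 held 1.25 and 1.29, where the other coarct libraries held 24.4 to 78.0. In sham, number 24 was highest and number 26 lowest at all 3 sites, at 150, 170 and 86.3 CPM and at 12.6, 16.0 and 9.55 CPM above, below and in brown fat.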
